A study of Mus musculus with 8 samples.

Results

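The bone morphogenetic protein (BMP) target genes described here are 10 genes whose transcription is known to follow BMP signals in many embryonic tissues: Id1, Id2, Id3, Id4, Smad6, Smad7, Msx1, Msx2, Gata3 and Hand1. They were chosen by name, with earlier results of these data known. All 10 were measured by 1 probe each, and they are 10 of the 19938 genes tested. Transcripts were measured on 8 microarrays, each holding RNA of primordial germ cells (PGCs), the precursors of sperm and eggs, sorted from 1 mouse embryo at embryonic day 9.5. The 4 WT embryos (Ror2+/+) had 25, 25, 22 and 21 somites, and the 4 mutant embryos (Ror2Y324C/Y324C) had 24, 22 to 23, 23 and 21 to 22. Ror2 is a receptor tyrosine kinase for Wnt5a, and the Y324C change is homozygous in the mutants. All embryos came from heterozygous mothers and heterozygous fathers that were homozygous for the Oct4-ΔPE GFP reporter, which marks PGCs, so every embryo carried the reporter. GFP-positive cells were sorted from the trypsin-digested posterior of each embryo. The strain background was mixed, the mutation was present in all cells of a mutant embryo, and litters are not named.

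BMP ligands bind serine/threonine kinase receptors that phosphorylate Smad1, Smad5 and Smad9, which enter the nucleus with Smad4 and bind the regulatory sequence of target genes. Id genes are among the most direct targets. Their products lack a DNA-binding region and hold E proteins away from DNA. Smad6 and Smad7 are inhibitory Smads that dampen the signal, while Msx1, Msx2, Gata3 and Hand1 encode transcription factors of mesoderm, ectoderm or extraembryonic tissue. In the mouse, BMP signals from the extraembryonic ectoderm induce PGCs in the epiblast, and BMP signalling also acts on PGCs and their surroundings during migration. The comparison of mutant with WT asks whether transcript levels of these genes in sorted PGCs differ when Ror2 carries this change. The relation to somite number asks whether these levels vary with stage. BMP signalling itself was not measured.

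The promoters of 7 members were taken by symbol from the RefSeq table (GRCm38.p6): Id2, Id3, Id4, Smad6, Msx1, Msx2 and Gata3. Any member window on 1 chromosome was left out by choice, and the set of all promoters had no such limit. Id1, Smad7 and Hand1 were not searched, so the member counts below do not cover them. The shares over all promoters are thus not a matched reference for these counts. Each window holds 300 bases, from 250 before to 50 after the annotated start. Both strands were searched for 3 motifs that Smad proteins are known to bind: GGCGCC, a GC-rich element, the palindrome GTCTAGAC, and CAGAC, which does not overlap the palindrome. GGCGCC occurred in 3 of the 7 member promoters and in 11.9% of all 32851 promoters. G and C made up from 60.0% to 73.3% of the 7 member windows, against a median of 52.7% over all promoters. The counts of motifs were not adjusted for this. GTCTAGAC occurred in 1 of the 7, that of Smad6, where it began at position -4 from the start, and in 0.213% of all promoters. CAGAC occurred in 2 of the 7 and in 49.6% of all promoters. A match is a string of letters and not a measured binding site. The promoters of Id2, Smad6 and Gata3 are shown because Id2 and Smad6 had the highest Pearson correlation of any pair of members, and Gata3 was 1 of the 2 members with a somite slope at an unadjusted p under 0.05. Capitals mark the motifs.
Id2 (GRCm38.p6, chr12:25096043-25096342, minus strand): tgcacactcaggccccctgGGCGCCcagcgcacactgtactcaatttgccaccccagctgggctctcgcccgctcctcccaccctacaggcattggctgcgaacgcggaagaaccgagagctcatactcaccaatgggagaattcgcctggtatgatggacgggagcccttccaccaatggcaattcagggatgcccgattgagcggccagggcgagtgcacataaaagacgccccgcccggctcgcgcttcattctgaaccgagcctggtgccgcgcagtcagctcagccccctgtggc
Smad6 (GRCm38.p6, chr9:64022010-64022309, minus strand): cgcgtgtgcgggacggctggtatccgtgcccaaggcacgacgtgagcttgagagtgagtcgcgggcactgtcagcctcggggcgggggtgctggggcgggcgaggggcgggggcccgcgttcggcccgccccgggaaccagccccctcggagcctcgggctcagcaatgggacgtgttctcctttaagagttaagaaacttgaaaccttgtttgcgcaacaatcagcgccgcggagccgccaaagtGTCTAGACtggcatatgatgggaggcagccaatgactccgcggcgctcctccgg
Gata3 (GRCm38.p6, chr2:9878551-9878850, minus strand): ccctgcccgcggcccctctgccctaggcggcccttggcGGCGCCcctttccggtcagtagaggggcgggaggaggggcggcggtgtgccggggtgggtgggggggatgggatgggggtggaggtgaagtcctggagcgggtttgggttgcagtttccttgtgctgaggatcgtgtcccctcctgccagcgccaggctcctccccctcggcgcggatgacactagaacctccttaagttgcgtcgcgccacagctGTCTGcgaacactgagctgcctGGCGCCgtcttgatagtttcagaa
The Id2 window held GGCGCC at position -231, and the Gata3 window held it at -212 and 27 and CAGAC at 5.

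The germ cell identity of the sorts was checked against fixed markers. Pou5f1 encodes the Oct4 protein, and its log2 value was 11.13 ± 0.18 in WT embryos and 11.24 ± 0.12 in mutant embryos (SD, n = 4 each), and Dppa3, a germ line marker, was at 11.27 ± 0.23 and 11.41 ± 0.11. The mean of 10 PGC markers ran from 9.95 to 10.22 in WT and from 10.12 to 10.17 in mutants. Ror2 differed by 0.11 (95% interval -0.30 to 0.53), and because the allele is an amino acid change its transcript level does not check the labels. Array medians ran from 5.37 to 5.58. The spread of log2 values over genes was narrowest in the 3 youngest embryos, with an SD of 1.77 in WT 3, 1.82 in WT 4 and 1.83 in mutant 4, and ran from 1.86 to 1.95 in the other 5 arrays. WT 3 and mutant 4 were the only arrays with high Xist (7.07 and 6.31, against at most 4.11), so each group held 1 of them. The deposited table holds no detection call. For reference, 1194 genes of olfactory and vomeronasal receptors, known from the nose, had a median level of 3.64 with a 95th percentile of 5.26. Gata3, at a mean of 5.08, lay within this range, and the other 9 members lay above it. Probes differ in their response, so levels are not ranked between members.

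No BMP target gene differed between mutant and WT embryos beyond the error of the limma fit. By this test, none of the 10 passed an adjusted p of 0.05 (lowest 0.973), 0 had an unadjusted p under 0.05, where 4.68% of all genes did, and all 10 had overlapping groups, where 2.52% of all genes did not overlap. Of the 10 differences (mutant minus WT), 2 were above 0 and 8 below, with a median of -0.08, while over all genes 8902 were above and 11036 below with a median of -0.02. Of the 1194 olfactory and vomeronasal receptor genes, 868 were below 0, with a median of -0.083. Among these receptor genes, 50 were lower and 4 higher in mutants at an unadjusted p under 0.05 (limma). After median centring, 11594 of all genes were above 0, so the split over all genes turned with the scaling. All 10 intervals (95%) included 0, and 9 of them lay within 1 log2 unit, a change of 2-fold, on either side. The split of signs was not stable, with 4 above 0 after median centring and 5 above 0 without WT 4.

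**Figure D1:**
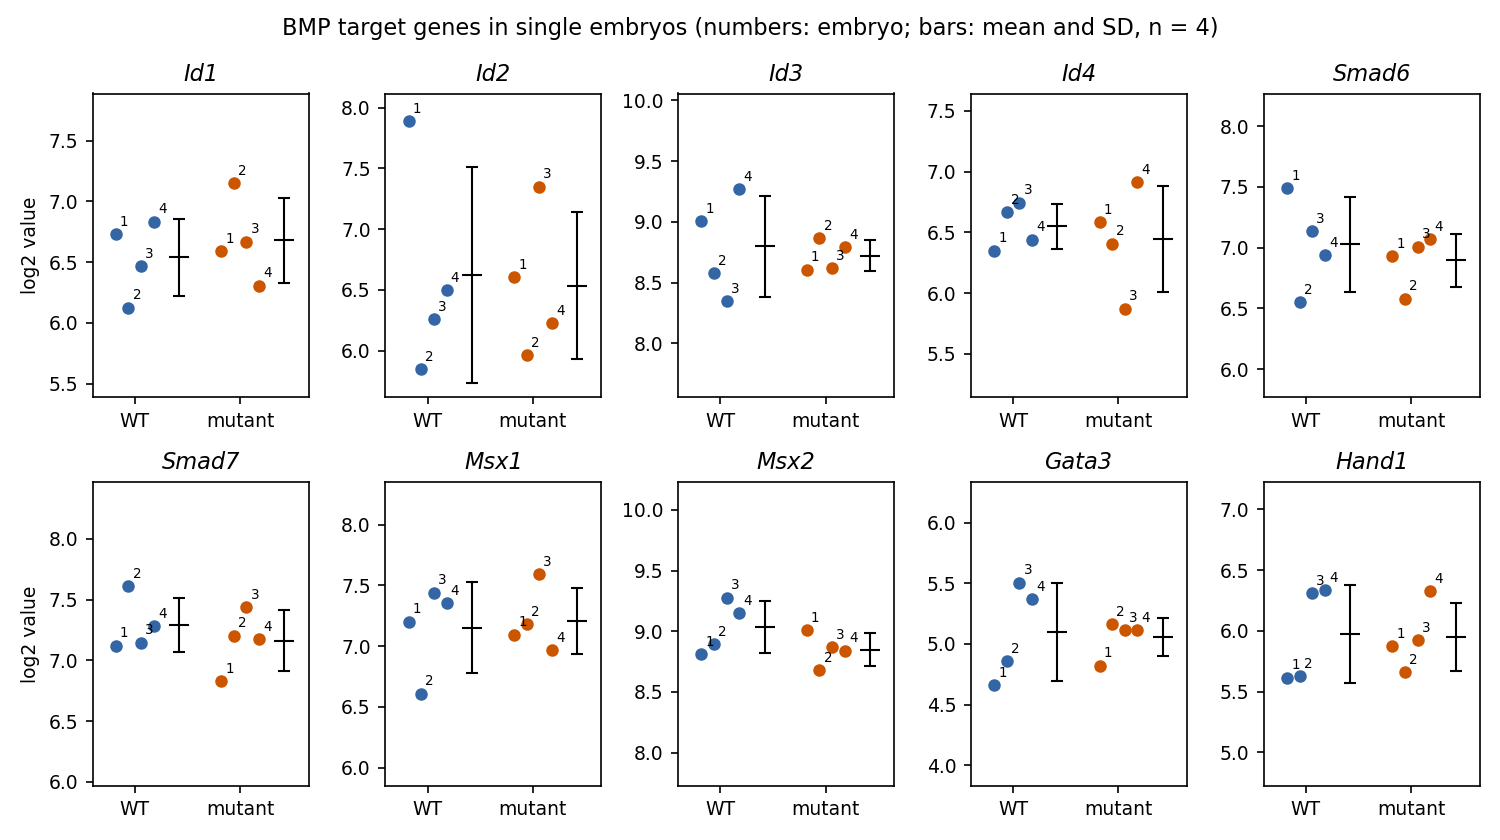
Log2 value of each BMP target gene (vertical axis, the same span of 2.5 log2 units in every panel) in each WT and mutant embryo. Points are embryos with their number, and bars give the mean and SD of 4 embryos. The groups overlap in all 10 genes, and Id2 varies most between embryos, from 5.85 to 7.89.

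The Id genes encode inhibitors of basic helix-loop-helix factors, and in each of the 4 the range over embryos was wider than the difference between genotype means. Id1 was at 6.73, 6.12, 6.47 and 6.83 in WT 1 to 4, and at 6.59, 7.15, 6.67 and 6.31 in mutants 1 to 4. The highest value was that of mutant 2 and the lowest that of WT 2, and the groups overlapped. Its difference was 0.14 ± 0.21 (SE; interval -0.32 to 0.61), a fold of 1.10 with bounds of 0.799 and 1.52.

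Id2 was at 7.89, 5.85, 6.26 and 6.5 in WT, and at 6.60, 5.96, 7.35 and 6.23 in mutants. WT 1 and mutant 3 were high, and the other 6 embryos lay between 5.85 and 6.60. The SD of Id2 over all 8 arrays was 0.70, above that of 98.1% of all genes, whose median SD was 0.24. Its difference was -0.09 ± 0.42 (SE), and the interval, from -1.02 to 0.84, was the widest of the 10. The Id2 promoter shown above is thus that of the member that varied most. Its sign turned when 1 of 3 embryos was left out: the difference was 0.34 ± 0.31 (SE) without WT 1, 0.10 without mutant 2 and 0.017 without mutant 4.

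Id3 was at 9.0, 8.58, 8.35 and 9.27 in WT, and at 8.60, 8.87, 8.62 and 8.79 in mutants. All 4 mutant values lay inside the range of the WT values. The SD was 0.41 in WT and 0.13 in mutants, a contrast that was not tested, and the difference was -0.08 ± 0.20 (SE; interval -0.52 to 0.36). Id4 was at 6.35, 6.66, 6.74 and 6.44 in WT, and at 6.59, 6.41, 5.87 and 6.92 in mutants. Here the mutants enclosed the WT values, with mutant 3 lowest and mutant 4 highest. The SD was 0.19 in WT and 0.44 in mutants, and the difference was -0.10 ± 0.21 (SE; interval -0.57 to 0.36).

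The inhibitory Smads, which feed back on the pathway, were close between genotypes. Smad6, which acts mainly on BMP signals, was at 7.49, 6.55, 7.14 and 6.94 in WT, and at 6.93, 6.58, 7.01 and 7.07 in mutants. The highest and the lowest value were both from WT embryos, WT 1 and WT 2, which share a stage of 25 somites. Its difference was -0.13 ± 0.20 (SE; interval -0.58 to 0.32). Smad7, which inhibits both BMP and TGF-beta signals, was at 7.12, 7.61, 7.15 and 7.28 in WT, and at 6.83, 7.20, 7.44 and 7.18 in mutants. The spread within each group exceeded the difference of -0.13 ± 0.17 (SE; interval -0.50 to 0.24).

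The homeobox genes Msx1 and Msx2 encode repressors that mark BMP-responsive ectoderm and mesenchyme. Msx1 was at 7.20, 6.61, 7.44 and 7.35 in WT, and at 7.09, 7.18, 7.59 and 6.97 in mutants. WT 2 was lowest and mutant 3 highest, and the difference was 0.06 ± 0.21 (SE; interval -0.40 to 0.52). Msx2 was at 8.81, 8.90, 9.28 and 9.15 in WT, and at 9.01, 8.68, 8.87 and 8.84 in mutants. Its difference of -0.18 ± 0.15 (SE; interval -0.51 to 0.14) was the largest in size of the 10 and had the lowest unadjusted p (0.234, limma), yet mutant 1 lay above WT 1 and WT 2. Msx2 had the smallest SD over all arrays, 0.19.

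Gata3, a zinc finger factor of surface ectoderm and other tissues, was at 4.66, 4.86, 5.50 and 5.37 in WT, and at 4.82, 5.16, 5.11 and 5.12 in mutants. Hand1, a basic helix-loop-helix factor of extraembryonic and lateral mesoderm, was at 5.62, 5.63, 6.31 and 6.33 in WT, and at 5.88, 5.66, 5.92 and 6.33 in mutants. In both genes WT 1 and WT 2 were low and WT 3 and WT 4 high. The differences between genotypes were -0.044 ± 0.20 and -0.025 ± 0.22 (SE), with intervals from -0.48 to 0.39 and from -0.50 to 0.45.

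**Figure D2:**
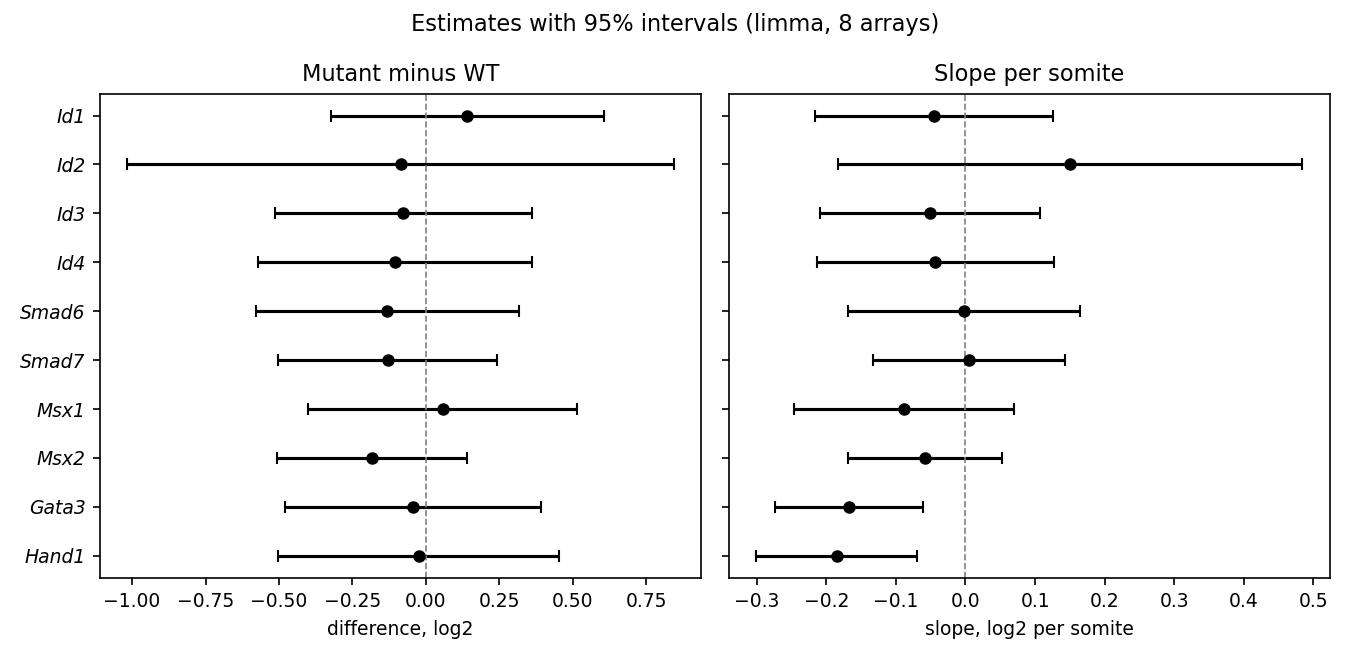
Estimates for the 10 BMP target genes with 95% intervals from limma on 8 arrays: left, mutant minus WT in log2 units, right, slope in log2 units per somite with genotype in the model. Every interval of the genotype difference includes 0, and the slope intervals of Gata3 and Hand1 lie below 0 before adjustment over all genes.

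Slopes on somite number came from a limma model that also held genotype. No member passed an adjusted p of 0.05, and neither did any of the 19938 genes (lowest adjusted p 0.0823). At an unadjusted p under 0.05, 2 of the 10 members had a negative slope and 0 a positive one, where 4.72% of all genes had a negative and 5.02% a positive slope at that level, 9.74% in either direction. Of the 10 slopes 8 were below 0, with a median of -0.048 log2 per somite, and over all genes 11868 of 19938 were below 0 with a median of -0.020. After median centring, 7 of the 10 members and 9477 of all genes were below 0. The sign count ranged from 6 to 9 below 0 over the alternative settings.

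Hand1 had a slope of -0.19 ± 0.05 log2 per somite (SE; interval -0.30 to -0.07), a fold of 0.880 per somite, with an unadjusted p of 0.00547 and an adjusted p of 0.410 (limma). The 3 embryos of at most 22 somites, WT 3, WT 4 and mutant 4, had Hand1 values from 6.31 to 6.33, and the other 5 embryos had values from 5.62 to 5.92. These ranges did not overlap, and each held embryos of both genotypes. No other member split in this way, and the share of all genes with such a split was not computed. The split depends on the stage given to mutant 2, of 22 to 23 somites, which counted among the older embryos by the upper end of its range. With a Hand1 value of 5.66, it would make the ranges overlap at the lower end of its somite range. WT 3, WT 4 and mutant 4 were also the arrays with the narrowest spread of log2 values over genes, and the part of this spread in the Hand1 slope was not tested. Gata3 had a slope of -0.17 ± 0.05 (SE; interval -0.27 to -0.06), with an unadjusted p of 0.00584 and an adjusted p of 0.420. Its probe was not shown to be above background, since 90 of the 1194 receptor genes had a higher mean, and 839 of those 1194 also had a negative slope, so no fold is given for it. Its values were from 5.12 to 5.50 in the 3 embryos of at most 22 somites and from 4.66 to 5.16 in the other 5, so these ranges overlapped. The 2 oldest embryos, WT 1 and WT 2, had the lowest Hand1 values and 2 of the 3 lowest Gata3 values.

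Leaving out each array in turn moved the Hand1 slope between -0.20 and -0.17 and the Gata3 slope between -0.20 and -0.14. Without WT 3, the array of narrowest spread, they were -0.17 ± 0.06 and -0.14 ± 0.05 (SE), with unadjusted p-values of 0.0148 and 0.0154 (limma). Without both arrays of high Xist they were -0.15 and -0.16. With the replicate number as a block the Gata3 slope turned to 0.11 ± 0.25 (SE) and the Hand1 slope was -0.18 ± 0.26 (SE), and the numbers do not pair the embryos.

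**Figure D3:**
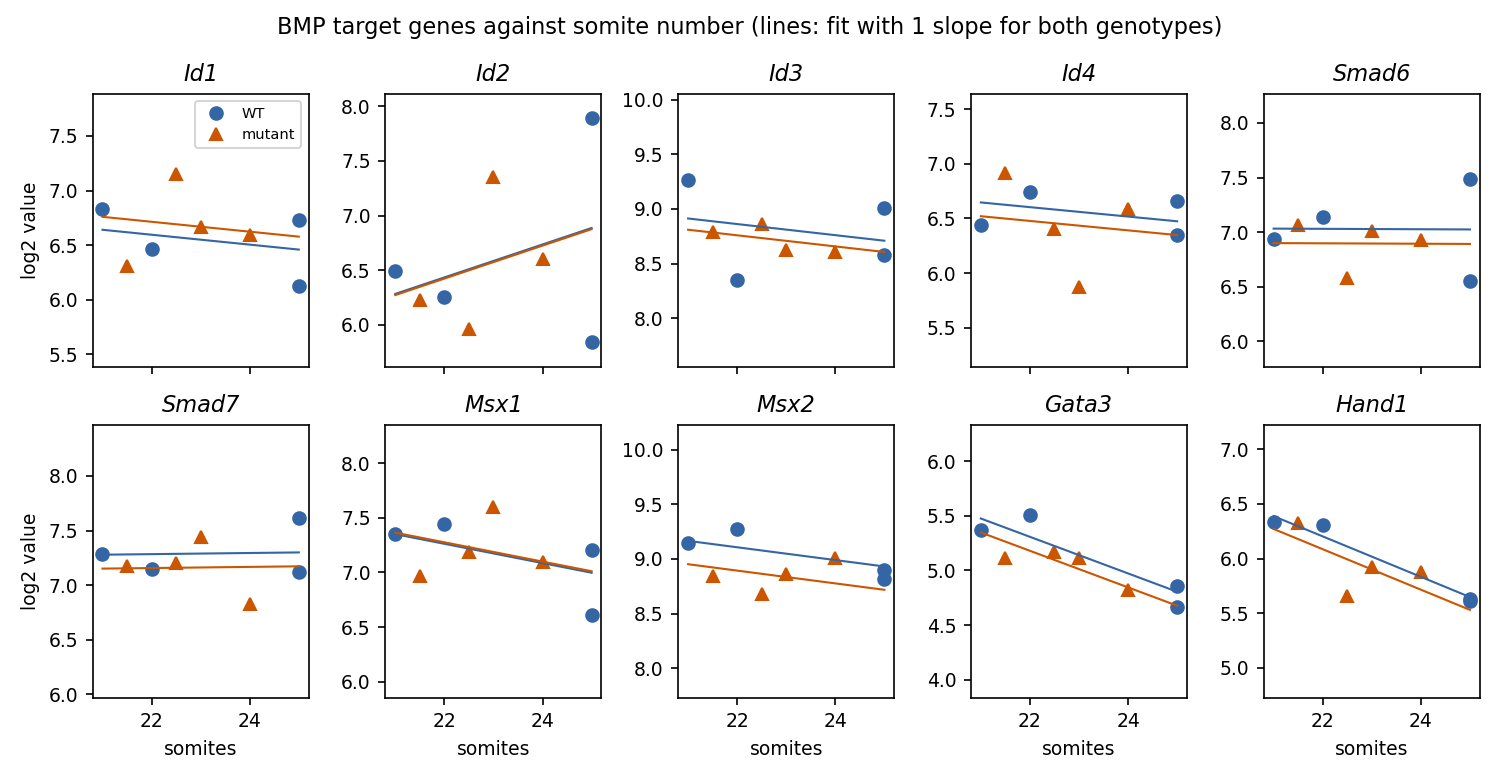
Log2 value of each BMP target gene (vertical axis, a span of 2.5 log2 units in every panel) against somite number, using the middle of a range of somites. Circles are WT and triangles mutant embryos, and lines show the fit with 1 slope for both genotypes. The common slopes of Hand1 and Gata3 are -0.19 and -0.17, and Id2 is set apart by 1 WT and 1 mutant embryo of high value.

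The other 8 members had no slope whose interval lay apart from 0. Among the Id genes the slopes were -0.045 ± 0.076 for Id1, 0.15 ± 0.15 for Id2, -0.051 ± 0.071 for Id3 and -0.043 ± 0.076 for Id4 (log2 per somite, SE). The positive slope of Id2 rested on WT 1. It was -0.045 ± 0.12 (SE) without it. Without WT 2 it was 0.35, with an unadjusted p of 0.0156 and an adjusted p of 0.510 (limma). Smad6 and Smad7 had slopes of -0.0019 ± 0.074 and 0.0052 ± 0.061. Msx1 and Msx2 had slopes of -0.088 ± 0.070 and -0.059 ± 0.049.

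The slopes were also compared between genotypes by an interaction term. None of the 10 differed at an unadjusted p under 0.05 (Id4 did without mutant 1, by -0.66), where 4.52% of all genes did, and 0 of 19938 genes passed after adjustment (limma; 902 at an unadjusted p under 0.05). The Hand1 slope was -0.19 ± 0.06 in WT and -0.15 ± 0.12 in mutants (SE), and that of Gata3 was -0.18 ± 0.06 and -0.12 ± 0.11, so within mutants alone neither slope was apart from 0. The difference was 0.039 with an interval from -0.27 to 0.35 for Hand1, and 0.064 with an interval from -0.22 to 0.35 for Gata3. Both intervals were wider than the slopes themselves, and a difference of that size was not detectable with 4 embryos per group.

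Variation shared between members was described over the 8 arrays. Of 45 pairs, 23 had a positive and 22 a negative Pearson correlation, with a median r of 0.03. By exact permutation of pairings (two-sided), 2 pairs had an unadjusted p under 0.05, and 0 passed after Benjamini-Hochberg adjustment over the 45 pairs. Id2 and Smad6 had r = 0.79 (exact permutation p = 0.0225, adjusted 0.775) and Spearman's rho = 0.62 (exact permutation p = 0.115, adjusted 0.852). Both were highest in WT 1, and without WT 1 and mutant 3, the arrays farthest from the Id2 median, r was 0.68. Gata3 and Hand1 had r = 0.75 (exact permutation p = 0.0344, adjusted 0.775) and rho = 0.71 (exact permutation p = 0.0576, adjusted 0.852), and r was 0.60 without WT 1 and WT 3. Id1 and Id3 had the highest rho of all pairs, 0.74 (exact permutation p = 0.0458, adjusted 0.852), with r = 0.52. Among the Id genes, Id1, Id2 and Id3 had positive r with one another, and Id4 had a negative r with each of them, down to -0.62 with Id2. That last relation rested on WT 1 and mutant 3, without which r was -0.07.

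**Figure D4:**
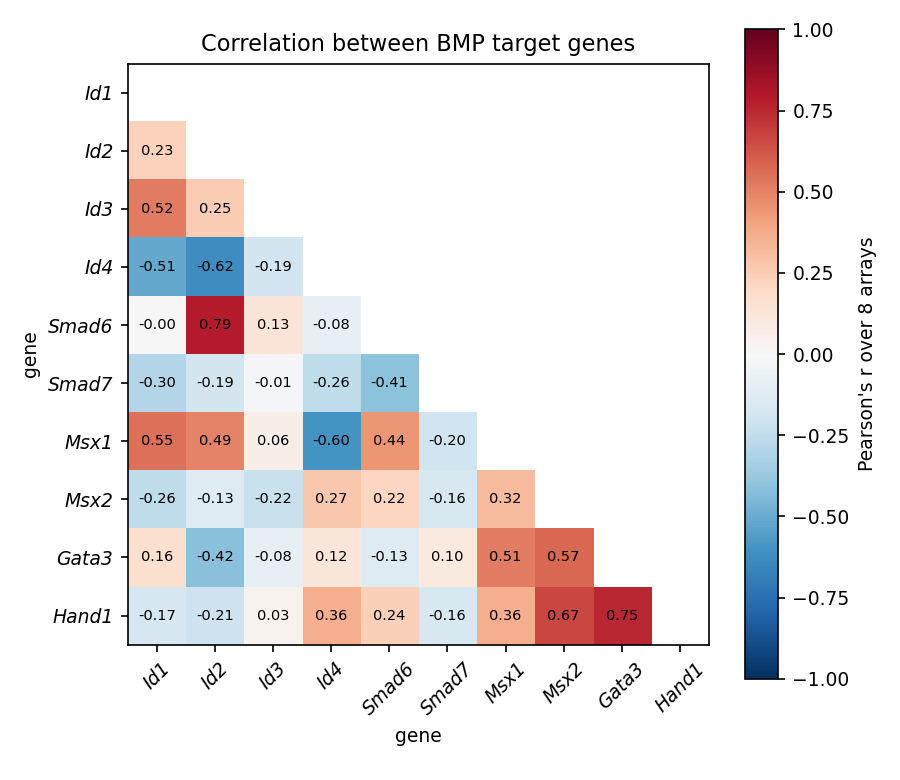
Pearson's r between the log2 values of each pair of BMP target genes over 8 arrays, from blue (negative) to red (positive). The highest value is 0.79 for Id2 with Smad6 and the lowest -0.62 for Id2 with Id4, and no pair passed adjustment over the 45 pairs.

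The genes that act before the targets were counted in the same fits. BMP ligands had 4 of 14 differences above 0 (11 of 14 after quantile normalization), and 1 of 14 passed an unadjusted p under 0.05, in the direction of higher in mutants, where 2.72% of all genes did. This was Bmp7, a secreted ligand, at 7.24 ± 0.22 in WT and 8.0 ± 0.23 in mutants (SD, n = 4), a difference of 0.76 ± 0.16 (SE) with an unadjusted p of 0.000827 and an adjusted p of 0.973 (limma). Of the BMP receptors and co-receptors, 1 of 10 passed at that unadjusted level: Rgma, a membrane-anchored co-receptor, which differed by 0.45 ± 0.16 (SE; unadjusted p = 0.0178, adjusted p = 0.973, limma) and by 0.33 without mutant 3 (unadjusted p = 0.0545, adjusted p = 1.00). None of the 4 signal-transducing Smads did, and 2 of their 4 differences were above 0, or 4 after median centring. Smad1, which carries the BMP signal to the nucleus, differed by 0.18 ± 0.18 (SE).

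Intracellular regulators had 9 of 11 differences above 0 with a median of 0.16. After median centring, 11 of 11 were above 0, and 6 of 11 with the arrays of low Xist alone. Smurf2, a ubiquitin ligase that marks Smads and receptors for degradation, was the 1 of 11 under an unadjusted p of 0.05. Over all genes, 2.72% were higher in mutants at that level. Smurf2 was at 6.44 ± 0.30 in WT and 7.23 ± 0.43 in mutants (SD, n = 4). The difference was 0.79 ± 0.23 (SE; unadjusted p = 0.0058, adjusted p = 0.973, limma). Among 15 extracellular antagonists and modulators, 1 was lower at an unadjusted p under 0.05, where 1.96% of all genes were: Bmper, which binds BMP ligands, by -0.35 ± 0.14 (SE; unadjusted p = 0.0310, adjusted p = 0.973, limma). Bmper was at 5.17 ± 0.13 in WT and 4.82 ± 0.18 in mutants (SD, n = 4). Both means lay below 5.26, the 95th percentile of the olfactory and vomeronasal receptor genes, so its probe was not shown to be above background. The unadjusted p of Bmper in limma was 0.0672 without WT 3, 0.0780 without WT 4, 0.0583 without mutant 1 and 0.0973 without mutant 2, with a lowest adjusted p over the alternatives of 0.568. The germ cell specification genes, which act downstream of the inducing BMP signal, had none of 5 at an unadjusted p under 0.05, with 3 differences above 0, or 2 after quantile normalization.

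A list of 10 other BMP-responsive genes was counted in the same way. Its genotype differences had 4 of 10 above 0, or 5 after median centring, and none at an unadjusted p under 0.05, with Gata2 nearest at 0.40 ± 0.18 (SE; unadjusted p = 0.0508, adjusted p = 0.973, limma). Of its somite slopes 8 of 10 were below 0, with a median of -0.071, and 2 were negative at an unadjusted p under 0.05, where 4.72% of all genes were and 11868 of 19938 slopes were below 0. These were the T-box factor Tbx3 at -0.22 ± 0.05 and the homeobox factor Dlx3 at -0.17 ± 0.06 log2 per somite (SE), with adjusted p-values of 0.340 and 0.474 (limma). In the limma fit without WT 3, Dlx3 had an unadjusted p of 0.0507 and an adjusted p of 0.598, without WT 2 these were 0.0890 and 0.568, and with the arrays of low Xist 0.0886 and 0.758. The 3 E proteins that Id proteins bind, Tcf3, Tcf4 and Tcf12, all had positive slopes. Tcf12, at 0.19 ± 0.06 (SE), had an unadjusted p of 0.00992 and an adjusted p of 0.428. Without WT 4 the Tcf12 slope was 0.11 (unadjusted p = 0.152, adjusted p = 0.571, limma), and without WT 1 the unadjusted p was 0.0502. Among ligands, Bmp6 had a negative slope of -0.14 ± 0.05 (SE; unadjusted p = 0.0240, adjusted p = 0.478, limma). The unadjusted p of Bmp6 was 0.120 without WT 1, 0.107 without WT 4, 0.0527 without mutant 4 and 0.0933 with the arrays of low Xist (limma, lowest adjusted p over the alternatives 0.381). Among regulators the phosphatase Ppm1a had a positive slope of 0.23 ± 0.04 (SE; unadjusted p = 0.000597, adjusted p = 0.290, limma).

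**Figure D5:**
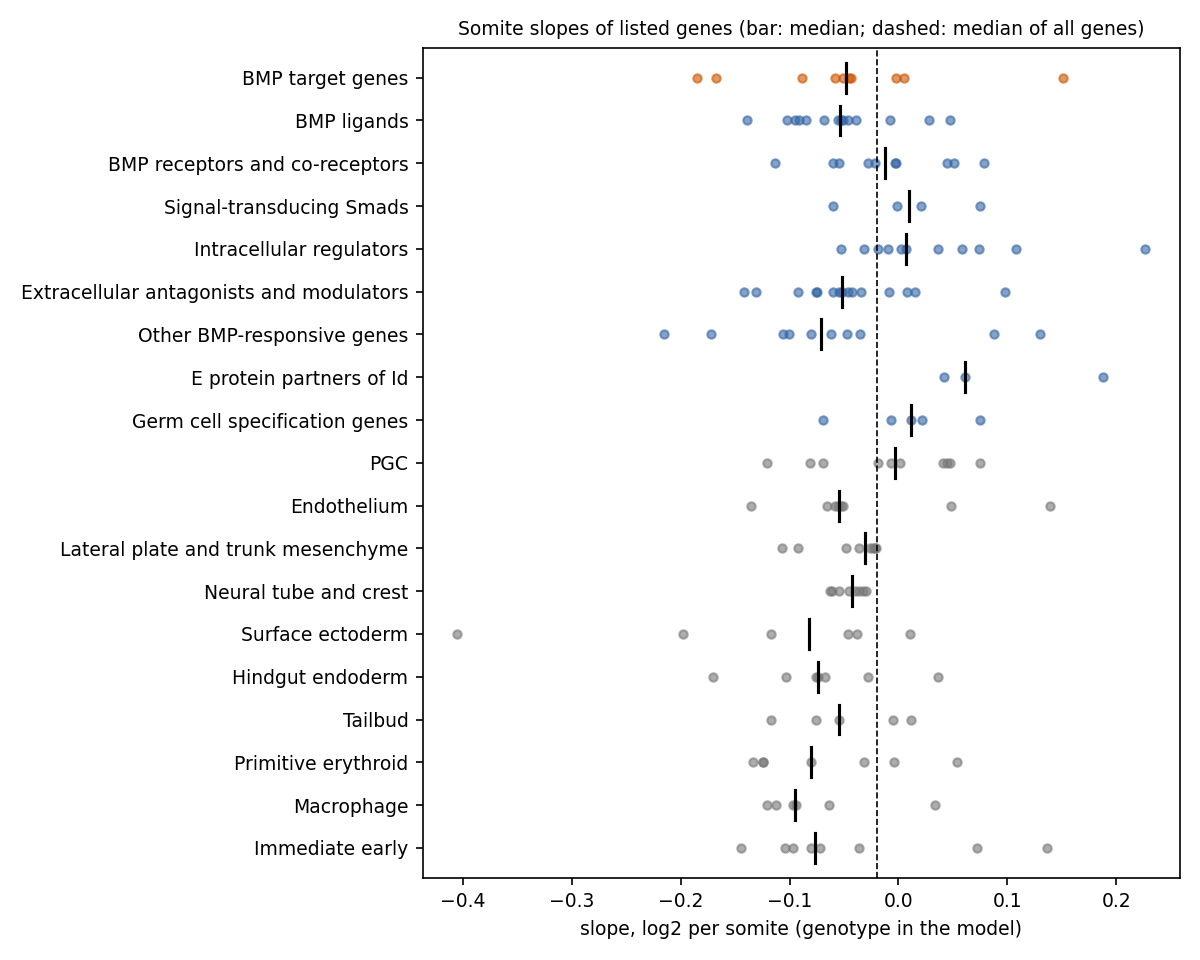
Slope in log2 units per somite (horizontal axis) for each gene of each list, with genotype in the model. Orange points are the BMP target genes, blue points other pathway genes and grey points cell type markers, black bars are list medians, and the dashed line is the median of all genes at -0.020. The 2 leftmost orange points are Hand1 and Gata3. The lowest slope shown is that of Krt18, -0.41, in the list of surface ectoderm markers.

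Because Gata3, Hand1, Msx1 and Msx2 are also expressed in tissues beside PGCs, markers of those tissues were set beside the slopes. In bulk RNA of a sort, fewer cells of a type and less RNA per cell cannot be told apart. Surface ectoderm markers had 5 of 6 negative slopes with a median of -0.082, and 1 of 6 was negative at an unadjusted p under 0.05, where 4.72% of all genes were. This was the keratin gene Krt18, with a slope of -0.41 ± 0.09 (SE; unadjusted p = 0.00171, adjusted p = 0.343, limma). Without WT 4 the Krt18 slope was -0.22 (unadjusted p = 0.0302, adjusted p = 0.438, limma). The other slopes of this list were -0.20 for Krt8, -0.12 for Wnt6, -0.047 for Trp63, -0.038 for Krt5 and 0.010 for Grhl3. Whether the Krt18 and Krt8 signal came from surface ectoderm was not tested. The mean over the 6 surface ectoderm markers ran from 6.18 to 6.91 in WT and from 6.21 to 6.62 in mutants, highest in WT 4 and mutant 4, the youngest embryo of each group. Lateral plate and trunk mesenchyme markers had 8 of 8 negative slopes with a median of -0.031 and none at an unadjusted p under 0.05, and 4 of 8 were negative after quantile normalization and 3 of 8 with the arrays of low Xist. Their mean ran from 4.58 to 5.01 in WT and from 4.67 to 5.02 in mutants, below the 95th percentile of the receptor genes. Tailbud markers had 4 of 5 negative slopes, with list means from 6.04 to 6.49 in WT and from 6.01 to 6.21 in mutants. Endothelial markers, from a tissue where Id1 and Smad6 are high, had 6 of 8 negative slopes and list means from 5.38 to 5.47 in WT and from 5.34 to 5.49 in mutants. These means were raised by Pecam1, at 8.50 in WT and 8.86 in mutants with a slope of 0.14. The next highest marker, Egfl7, was at 6.44 and 6.36. Of the remaining lists, negative slopes were seen in 8 of 8 neural, 6 of 7 hindgut, 6 of 7 primitive erythroid, 5 of 6 macrophage and 6 of 8 immediate early genes. The endothelial, tailbud, macrophage and immediate early lists also each held 1 negative slope at an unadjusted p under 0.05. These were Tie1, Msgn1, Fcer1g and Egr1, with adjusted p-values from 0.428 to 0.512 (limma). Their highest unadjusted p over the alternatives was 0.0609, 0.252, 0.202 and 0.186 (limma). The neural, hindgut and primitive erythroid lists held none. Negative slopes were common beyond these lists, with 11868 of 19938 over all genes. Of the 1194 olfactory and vomeronasal receptor genes 839 had one, and 67 were negative and 4 positive at an unadjusted p under 0.05. The part of other cells in the slopes of Hand1 and Gata3 was not tested. PGC markers had 5 of 10 negative slopes with a median of -0.0028.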

How the data were processed

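The deposited series table holds 1 value per probe and array for 35557 probes. The deposited values were taken as log2 because of their range, since no unit is named. How the authors corrected background, normalized and summarised them was not given in any source used here. RNA was amplified and labelled with biotin by NuGEN kits, per the labels' protocols. Of the probes, 21789 had 1 gene symbol in the platform annotation, 1621 had several and 12147 were unnamed here. The probe of highest mean represented each of 19938 genes.

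Tests across genes used lmFit and eBayes of limma 3.58.1 under R 4.3.3 with Benjamini-Hochberg adjustment over all genes (threshold 0.05): group means, somite slope with genotype (midpoint of a range), and their interaction. Pairs of members were tested by exact permutation. The scripts were tested on simulated data. All 10 members were named, with up to 3 genes of smallest p for genotype and up to 2 for slope from each list. Members and lists were chosen with earlier results of these data known. Replicate numbers did not pair embryos (correlations of same-numbered deviations from -0.19 to 0.10). Alternatives were scaling, a level filter, variance moderation, array weights, probe averaging, stage value, genotype term, replicate block, arrays of low Xist and leaving out each array. The number of arrays limits precision.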

Additional observations from a re-analysis of the deposited data

Results flagged for a closer look

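In groups of 4, a value was singled out where its gap to the nearest other value, relative to the whole range, exceeded Dixon's 95% critical value. Chance gives about 1 in 20 groups, and 58 groups were examined, 20 of them of members. The Gata3 value of mutant 1, 4.82, was lowest of the 4 mutants, the next being 5.11 (ratio 0.849). The mean of surface ectoderm markers in mutant 4, 6.62, was highest of the 4 mutants, the next being 6.26 (ratio 0.892). The mean of primitive erythroid markers in mutant 1, 5.02, was highest of the 4 mutants, the next being 4.82 (ratio 0.837).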

How the results depend on the processing

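No gene was called for mutant against WT or for the slope difference in any of 17 and 15 alternative settings. For the somite slope, 0 genes were called on the deposited values, 5 with the arrays of low Xist alone, 1 with the upper end of the somite range, and from 0 to 2 without 1 array. None of the members was called in any setting, and the cause of the changes below was not tested.

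Member differences had the other sign in 20 of 169 values: Gata3 at 0.021 after quantile normalization, 0.017 after median centring and 0.071 with the arrays of low Xist, Hand1 at 0.036 after median centring, and Id2 at 0.094 with array weights, a fit that stopped short of full convergence. Without 1 array the differences ran from -0.016 to 0.27 for Id1, -0.36 to 0.34 for Id2, -0.23 to 0.079 for Id3, -0.26 to 0.086 for Id4, -0.29 to 0.022 for Smad6, -0.12 to 0.15 for Msx1, -0.19 to 0.092 for Gata3 and -0.15 to 0.096 for Hand1.

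Slopes had the other sign in 21 of 189 values. Smad7 was at -0.024 after quantile normalization and -0.011 with the arrays of low Xist. Smad6 was at 0.022 after median centring, 0.037 with the arrays of low Xist, 0.0023 with the lower end of the somite range and 0.0061 with no genotype term. Id4 was at 0.035 with the arrays of low Xist. Without 1 array the slopes ran from -0.099 to 0.020 for Id1, -0.045 to 0.35 for Id2, -0.11 to 0.064 for Id3, -0.11 to 0.0067 for Id4, -0.093 to 0.091 for Smad6 and -0.056 to 0.046 for Smad7.

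Slope differences had the other sign in 16 of 149 values: with the arrays of low Xist Id1 was at -0.23, Id4 at 0.19, Smad6 at 0.17, Msx1 at -0.011 and Gata3 at -0.085. Without 1 array they ran from -0.26 to 0.40 for Id1, -0.14 to 0.48 for Id2, -0.24 to 0.028 for Id3, -0.66 to 0.22 for Id4, -0.15 to 0.19 for Smad6, -0.34 to 0.12 for Smad7, -0.057 to 0.19 for Gata3 and -0.13 to 0.31 for Hand1.

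With the replicate block, 0 genes were called for genotype or slope, and 891 and 522 had an unadjusted p under 0.05, from 934 and 1942. The slopes were then -1.16 for Id2, 0.024 for Id4 and 0.11 for Gata3, and 1 of 4 WT embryos correlated best with its own number. The genotype count at an unadjusted p under 0.05 was 1715 without WT 1. Among 9969 genes above the median level, which leaves out Gata3, it was 538, and 1046 for the slope and 546 for the slope difference.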
